A study of Mus musculus with 3 samples.

Results

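The Toll-like receptors other than Tlr4, together with the chaperone Unc93b1, were examined in RNA from the cytosol of mouse macrophages. The members were taken by gene symbol, and all 10 (9 receptors and Unc93b1) were found among the 55536 annotated genes of the deposited gene tables. The macrophages had been grown from bone marrow of C57BL/6J mice, without a transgene or deletion named in the labels, and neither age nor sex was collected. Every culture received 100 ng/ml Lipid A, the part of lipopolysaccharide that TLR4 recognises, for 12 h, was washed and kept for 12 h, and received 100 ng/ml again for 90 min before harvest. The 3 libraries form 1 group of biological replicates numbered 1 to 3, and total RNA depleted of ribosomal RNA was sequenced from each. Cells without Lipid A were not analysed here, so the values are levels after this schedule and not responses to it. The replicates carry the same donor record, and the spread between them therefore measures variation among these samples. In bulk RNA, fewer cells of a type and less RNA per cell cannot be told apart.

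Toll-like receptors are membrane proteins whose leucine-rich repeats bind microbial or damaged-self molecules and whose cytoplasmic TIR domain recruits adaptors. One branch sits at the cell surface and reads lipids, lipoproteins and flagellin. The other sits in endosomes and reads nucleic acids, reaches that compartment with the chaperone UNC93B1, and is trimmed there by cathepsins and other proteases. All of the receptors except TLR3 signal through the adaptor MYD88, while TLR3 uses TRIF, encoded by Ticam1. Macrophages are known to carry most of the family, and mice have receptors, TLR11 to TLR13, that humans lack as functional proteins.

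Some of the promoters hold motifs of factors that act downstream of these receptors, and the stretches that carry them are shown here beside that of a receptor with almost no reads. Windows of 250 bases upstream of RefSeq start sites were available for 8 of the 10 members (10 windows, build GRCm38.p6, also called mm10), and Tlr7 and Unc93b1 were not matched. Capitals mark the motif match, each sequence is written 5′ to 3′ in the direction of transcription, and the part of a window inside an annotated exon of the gene was left out.
Tlr2, chr3:83841768-83841858, minus strand: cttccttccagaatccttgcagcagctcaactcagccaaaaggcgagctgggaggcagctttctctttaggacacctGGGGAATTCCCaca
Tlr6, chr5:64959167-64959416, minus strand: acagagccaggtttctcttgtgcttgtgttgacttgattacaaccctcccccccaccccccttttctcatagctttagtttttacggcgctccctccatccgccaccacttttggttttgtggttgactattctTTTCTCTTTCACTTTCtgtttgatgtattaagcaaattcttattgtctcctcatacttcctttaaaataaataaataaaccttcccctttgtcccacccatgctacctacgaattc
Tlr9, chr9:106222348-106222597, plus strand: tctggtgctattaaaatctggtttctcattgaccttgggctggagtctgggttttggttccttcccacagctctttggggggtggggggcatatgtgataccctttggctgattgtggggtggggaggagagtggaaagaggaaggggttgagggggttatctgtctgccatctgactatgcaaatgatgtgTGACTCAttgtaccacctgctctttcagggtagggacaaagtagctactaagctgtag
Tlr5, chr1:182954538-182954787, plus strand: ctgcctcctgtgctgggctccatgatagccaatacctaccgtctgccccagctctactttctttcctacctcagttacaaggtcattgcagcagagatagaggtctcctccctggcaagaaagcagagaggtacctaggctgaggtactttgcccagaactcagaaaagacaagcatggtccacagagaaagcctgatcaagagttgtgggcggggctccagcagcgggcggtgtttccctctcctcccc
The Tlr2 capitals are 2 overlapping matches to the NF-kappaB consensus, 173 to 163 bases before the RefSeq start. In Tlr6 they are 2 overlapping matches, on the opposite strand, to the core of the interferon-stimulated response element. They lie 116 to 101 bases before a RefSeq start, and Tlr6 has another RefSeq start. The Tlr6 window shown lies inside the annotated gene (64952031 to 64960097, minus strand) and outside its annotated exons. Which start was used was not measured. In Tlr9 they are 1 match to TGANTCA, the AP-1 motif, 58 to 52 bases before the start.

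Both strands were searched in all 32851 windows of this length. The NF-kappaB consensus was present in 3.90% of them and in the windows of Tlr2 and Tlr3, where the Tlr3 match lies in an annotated exon of another transcript. The interferon-stimulated element was present in 2.98% of all windows and among the members only in a Tlr6 window, and the AP-1 motif in 6.75% and only in Tlr9. The PU.1 motif GAGGAAGT, bound by the macrophage and B cell factor, was present in 2.44% of windows and among the members only in Tlr1, 23 to 16 bases before its start. The TATA motif TATAAA was present in 12.4% of windows, and in those of Tlr8 and the other Tlr6 start. Its matches lie 91 to 84 bases before the start in Tlr8, and between 180 and 104 bases before it in Tlr6. None of the 5 motifs was found in the windows of Tlr5, which had 8 to 29 counts per library, and Tlr13, which had 17360 to 24517. A match describes the letters only, and binding was not measured.

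The libraries held 40637857, 70407572 and 49678390 expected counts on annotated genes. No pair agreed within sampling noise (chi-square per degree of freedom of 85.7 to 132), which cannot tell separate cultures from separate preparations. Each library was counted as a replicate by its label. All 6 macrophage markers, among them Lyz2 and Adgre1, were at 1 TPM or more in every library, and their summed level ran from 4479 to 5264 TPM. TPM, a transcript abundance, corrects counts for transcript length and for the total of the library. The marker counts here stand beside 16.7% of all annotated and 40.1% of protein-coding genes at 1 TPM or more in every library. For lists this short the counts alone do not show that a cell type is absent. Plasmacytoid dendritic cells and B cells are known for high Tlr7 and Tlr9, so their markers bear on these levels. Of 6 plasmacytoid markers only Tcf4 was detected, at 14.6 ± 2.13 TPM (SD, n = 3), and the summed level ran from 13.7 to 17.4 TPM. Siglech, another marker on this list, was at 0.0767 ± 0.0351 TPM. Of 5 B cell markers only Cd79b passed 1 TPM in every library (1.31 ± 0.361 TPM), Pax5, the factor that fixes B cell identity, was at 0.0167 ± 0.0153 TPM, and the sum was 1.07 to 1.80 TPM. Of the conventional dendritic cell markers 1 of 4 passed (Ccr7, 1.45 ± 0.169 TPM, sum of the list 1.44 to 1.77 TPM), and of the neutrophil markers 1 of 5 (S100a8, 4.12 ± 1.39 TPM, sum 2.57 to 5.13 TPM). Ly6g, which defines neutrophils, had no counts, which allows up to 0.120 TPM. None of the 3 T and NK cell markers passed (sum 0 to 0.10 TPM), and Cd3g had no counts, which allows up to 0.0443 TPM.

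Of the 10 members, 9 were detected, taken as 1 TPM or more in all 3 libraries, a threshold that 16.7% of all annotated genes and 40.1% of protein-coding genes passed. Tlr5 was the exception. In the order of mean level, Unc93b1 was followed by Tlr2, Tlr7, Tlr1, Tlr13, Tlr8, Tlr9, Tlr3, Tlr6 and Tlr5. Neighbours in this order were called apart where the log2 ratio of their TPM had 1 sign in all 3 libraries and a mean larger than its SD. By this description 8 of 9 neighbouring pairs were apart, and Tlr2 and Tlr7 were not. The order was taken from the same 3 libraries, so the count describes them and is not a test of the order. With 3 libraries an exact sign-flip test cannot give a two-sided p below 0.25, so no p is given for a level or a ratio.

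**Figure D1:**
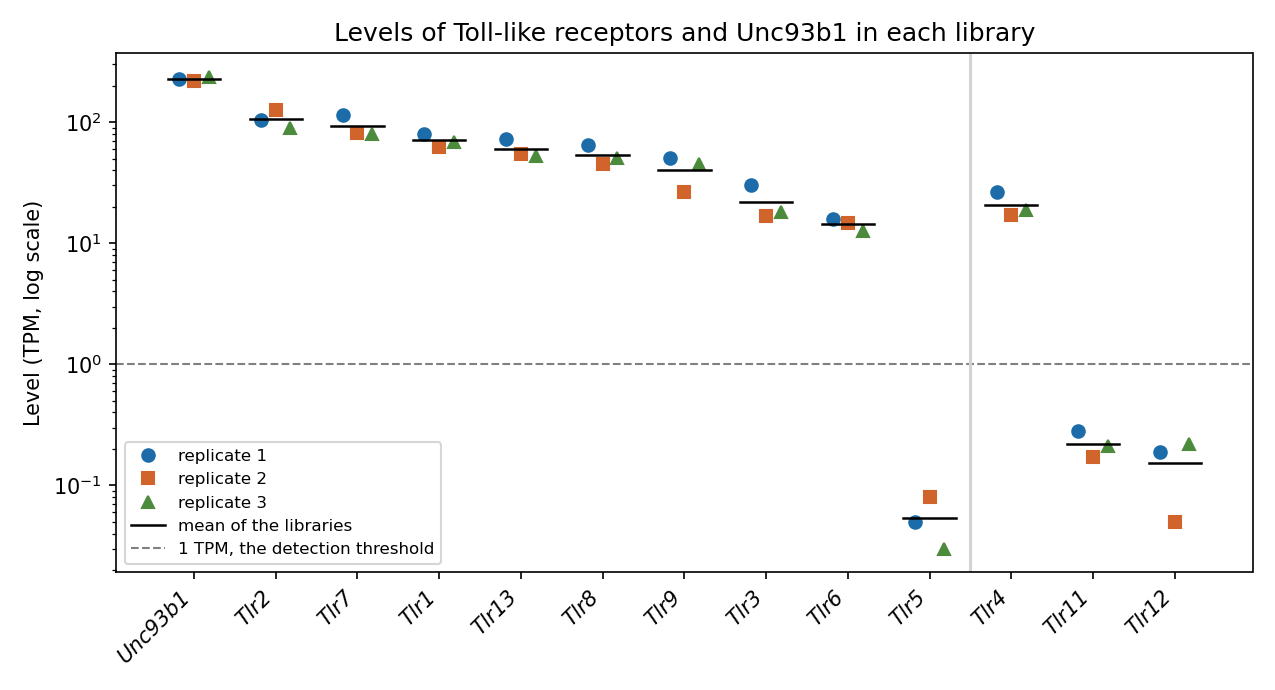
Level of each member in every library, in TPM on a log axis, ordered by mean, with Tlr4, Tlr11 and Tlr12 to the right of the grey line. Points are the 3 libraries, black bars their mean, and the dashed line is the 1 TPM threshold; 9 members lie above it in every library and Tlr5 lies below it in every library.

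Among the surface receptors, Tlr2 had the highest level. It binds bacterial lipoproteins as a heterodimer with TLR1 or TLR6, and its gene (ENSMUSG00000027995, mm10 chromosome 3, 83836272 to 83841767, minus strand) was at 103.83, 125.67 and 90.14 TPM in replicates 1, 2 and 3. Replicate 2 was the highest and replicate 3 the lowest. The mean was 107 ± 17.9 TPM (SD, n = 3), at the 94.6th percentile of the 9276 detected genes, on 18009 to 41569 counts per library.

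Tlr1, the partner of TLR2 for triacylated lipoproteins (ENSMUSG00000044827, chromosome 5, 64924679 to 64933563, minus strand), was at 80.21, 62.92 and 68.76 TPM. Its mean was 70.6 ± 8.80 TPM. Tlr2 was above Tlr1 in each library, with log2 ratios of 0.37, 1.00 and 0.39 and a mean of 0.59 ± 0.36 (SD, n = 3), a 1.5-fold difference. The ratio in replicate 2 stood above those in replicates 1 and 3, and without replicate 2 the mean log2 ratio was 0.38.

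Tlr6, the partner of TLR2 for diacylated lipoproteins (ENSMUSG00000051498, chromosome 5, 64952031 to 64960097, minus strand), was at 15.80, 14.60 and 12.62 TPM, with a mean of 14.3 ± 1.61 TPM. It was the lowest of the detected members. Tlr2 exceeded it by 2.89 ± 0.20 on the log2 scale and Tlr1 exceeded it by 2.30 ± 0.17, in 3 of 3 libraries each. Tlr1 and Tlr6 lie next to each other on the same strand, 18467 bases apart with no annotated gene between them. They share sequence, and 607 of the 3709 31-base words of Tlr6 transcripts also occur in Tlr1, so reads from the shared stretch are assigned by the authors' program. The posterior SD that the program gave for the Tlr6 count was at most 0.268% of the count, and for Tlr1 at most 0.0461%.

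Tlr5, the flagellin receptor (ENSMUSG00000079164, chromosome 1, 182954788 to 182976044, plus strand), had 9, 29 and 8 counts. These are 0.05, 0.08 and 0.03 TPM, a mean of 0.0533 ± 0.0252 TPM, and lie under the threshold in every library. Counting error alone is 25.5% of a mean count this small. Surface receptors thus ranged from Tlr2 at 107 TPM to Tlr5 at 0.0533 TPM in the same RNA.

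Among the endosomal receptors, Tlr7 had the highest mean level. It senses single-stranded RNA and guanosine (ENSMUSG00000044583, chromosome X, 167304929 to 167330558, minus strand) and was at 114.99, 81.83 and 80.30 TPM, a mean of 92.4 ± 19.6 TPM. Replicate 1 was the highest and the other libraries were close together. Against Tlr2 its order changed with the library: the log2 ratio of Tlr2 to Tlr7 was -0.15, 0.62 and 0.17, a mean of 0.21 ± 0.39. Without replicate 1, Tlr2 was called apart from Tlr7, and without replicate 2, Tlr7 had the higher mean of the pair.

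Tlr8, which in mice lies beside Tlr7 on chromosome X (ENSMUSG00000040522, 167242696 to 167264329, minus strand, 40599 bases from Tlr7), encodes another endosomal receptor. It was at 64.63, 45.27 and 50.40 TPM, a mean of 53.4 ± 10.03 TPM. Tlr7 was above its neighbour in each library, by 0.83, 0.85 and 0.67 on the log2 scale, a mean of 0.79 ± 0.10. The pair thus kept a similar ratio while both levels were highest in replicate 1.

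Tlr13, a receptor for a conserved stretch of bacterial ribosomal RNA (ENSMUSG00000033777, chromosome X, 106143204 to 106160493, plus strand), was at 73.11, 54.12 and 52.47 TPM, a mean of 59.9 ± 11.5 TPM. It was below Tlr7 by nearly the same amount in each library, with log2 ratios of -0.65, -0.60 and -0.61 and a mean of -0.62 ± 0.03. The size of the gap depended on length: the mean was -0.14 ± 0.04 with expected counts and -0.24 ± 0.04 with transcripts of 1000 nt or more only. The level of Tlr13 followed that of Tlr7 across these 3 libraries, which are too few for a correlation.

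Tlr9, the receptor for unmethylated CpG DNA (ENSMUSG00000045322, chromosome 9, 106222598 to 106226883, plus strand), was at 50.68, 26.30 and 44.85 TPM, a mean of 40.6 ± 12.7 TPM. Replicate 2 was low against the other two libraries. Tlr7 was above Tlr9 in each library by 1.18, 1.64 and 0.84 on the log2 scale, a mean of 1.22 ± 0.40. Tlr9 has 1 annotated transcript, so its level does not depend on how reads were divided among transcripts.

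Tlr3, the receptor for double-stranded RNA (ENSMUSG00000031639, chromosome 8, 45395665 to 45411080, minus strand), was the lowest of the 5 endosomal members. It was at 30.40, 16.87 and 17.97 TPM, a mean of 21.7 ± 7.51 TPM, with replicate 1 high and the other libraries close together. It stood below Tlr7 by a mean log2 ratio of -2.12 ± 0.18. The antisense gene Gm45542 overlaps 381 exonic bases of Tlr3, and no source used here states whether counting used the strand. Gm45542 was assigned 0, 3 and 0 counts, beside 5054 to 6399 for Tlr3.

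Unc93b1, the chaperone that escorts the endosomal receptors out of the endoplasmic reticulum (ENSMUSG00000036908, chromosome 19, 3935186 to 3949340, plus strand), had the highest level of the 10 members. It was at 227.99, 218.51 and 237.83 TPM, a mean of 228 ± 9.66 TPM, on 26229 to 47172 counts. This is the 97.95th percentile of detected genes. It exceeded Tlr2, the next in order, by 1.13, 0.80 and 1.40 on the log2 scale, a mean of 1.11 ± 0.30. Its coefficient of variation over the libraries, 4.24%, was the smallest of the members on deposited TPM, where those of the receptors ran from 11.2% for Tlr6 to 47.2% for Tlr5. This did not hold with TPM rescaled over nuclear protein-coding genes, where it was 11.0% for Unc93b1, 4.53% for Tlr6, 7.72% for Tlr1 and 10.4% for Tlr13.

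The summed TPM of the 5 endosomal receptors was 333.81, 224.39 and 245.99, and that of the 4 surface receptors was 199.89, 203.27 and 171.55. The endosomal sum was thus higher in each library. The log2 ratio was 0.74, 0.14 and 0.52, a mean of 0.47 ± 0.30, a 1.38-fold difference. Of the summed TPM of these 9 receptors, the endosomal members made up 58.0 ± 5.10% and the surface members 42.0 ± 5.10%. With Tlr4 added to the surface sum, and Tlr11 and Tlr12 to the endosomal sum, the log2 ratios were 0.56, 0.03 and 0.37, a mean of 0.32 ± 0.27. Set against the endosomal sum, Unc93b1 had log2 ratios of -0.55, -0.04 and -0.05, a mean of -0.21 ± 0.29, which is smaller than its SD. Without replicate 1 this mean was -0.04, and with expected counts, which carry no length correction, it was -0.95 ± 0.28.

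Receptor by receptor, Tlr2 took 19.5, 29.4 and 21.6% of the summed receptor TPM and Tlr7 took 21.5, 19.1 and 19.2%. Tlr2 was the largest share in replicates 2 and 3, and Tlr7 in replicate 1. Tlr1 took 15.4 ± 0.936%, Tlr13 13.0 ± 0.630% and Tlr8 11.6 ± 0.869%. Tlr9 took 9.50, 6.15 and 10.7%, the receptor share with the largest SD after Tlr2. Tlr3 took 4.65 ± 0.925%, Tlr6 3.13 ± 0.246% and Tlr5 0.0118 ± 0.00612%.

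**Figure D2:**
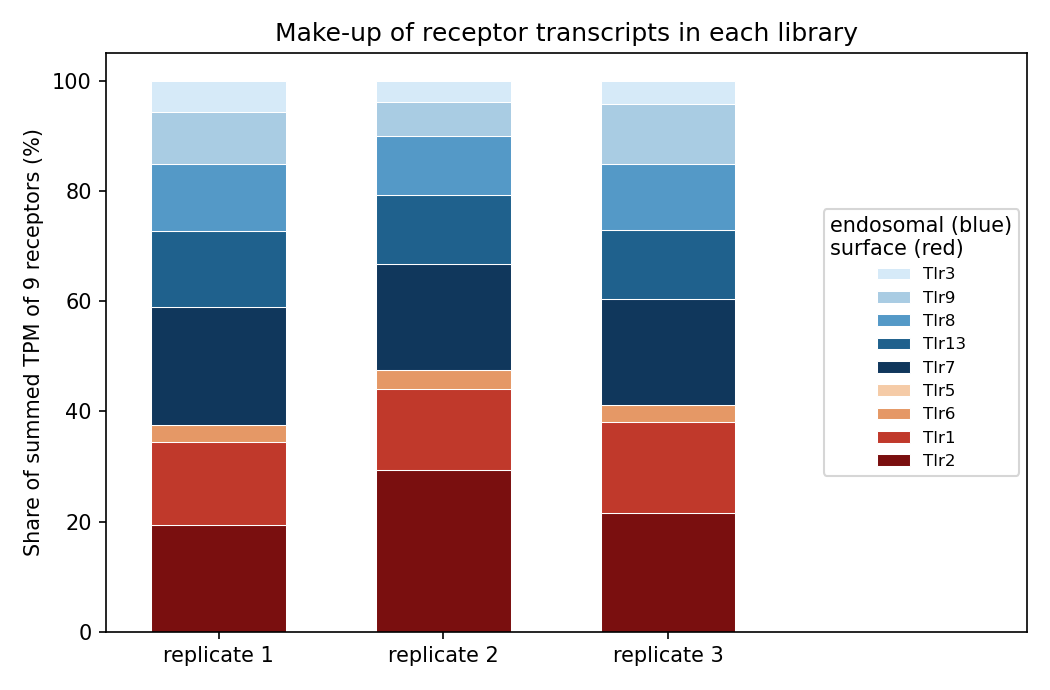
Share of the summed TPM of the 9 receptors (%) taken by each receptor in replicates 1, 2 and 3, with endosomal receptors in blue and surface receptors in red and orange. The endosomal share is 62.5% in replicate 1, 52.5% in replicate 2 and 58.9% in replicate 3, and the Tlr5 share is too thin to be seen.

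The members also differed in how their level was built from annotated transcripts. Tlr2 and Tlr9 have 1 annotated transcript each, and Tlr13-201 took 99.7 ± 0.318% of the Tlr13 level. Unc93b1-203, of 2266 nt, took 87.3 ± 1.31% of the Unc93b1 level. Tlr1 was divided between Tlr1-201 (61.5 ± 2.30%) and Tlr1-202 (33.3 ± 2.99%), both protein-coding. Tlr7-201 took 57.5 ± 1.02% of the Tlr7 level and Tlr7-202 took 14.9 ± 0.213%.

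Tlr3 had the most annotated transcripts, 9. In the first table Tlr3-205 took 40.8 ± 0.903%, Tlr3-201 took 30.4 ± 3.70% and Tlr3-206, a transcript of 1 exon, took 15.5 ± 3.61%. Tlr8-202 took 49.4, 61.4 and 46.1% of the Tlr8 level, and Tlr8-201 took 28.6, 16.6 and 34.2%. Replicate 2 had the highest share of the former and the lowest share of the latter.

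The Tlr6 level rested in large part on a short transcript. Tlr6-202, annotated at 446 nt, took 42.4 ± 4.11% of the Tlr6 TPM but 4.42 ± 0.888% of its expected counts. TPM divides by effective length, the annotated length less an allowance for insert size, and the inserts were 250 to 400 nt. With only the transcripts of 1000 nt or more counted, a choice made after the data were seen, Tlr6 was at 8.28 ± 1.33 TPM. Tlr2 then exceeded it by 3.68 on the log2 scale in place of 2.89, and Tlr1 by 3.02 in place of 2.30. Transcripts under 1000 nt took 23.5 ± 1.36% of the Tlr7 TPM, 21.2 ± 1.34% of Tlr8, 12.9 ± 3.16% of Tlr3, 11.6 ± 1.15% of Unc93b1 and 5.23 ± 0.767% of Tlr1. Tlr7 without them was at 70.6 ± 14.6 TPM, and was then not called apart from Tlr1, nor Tlr8 from Tlr9.

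**Figure D3:**
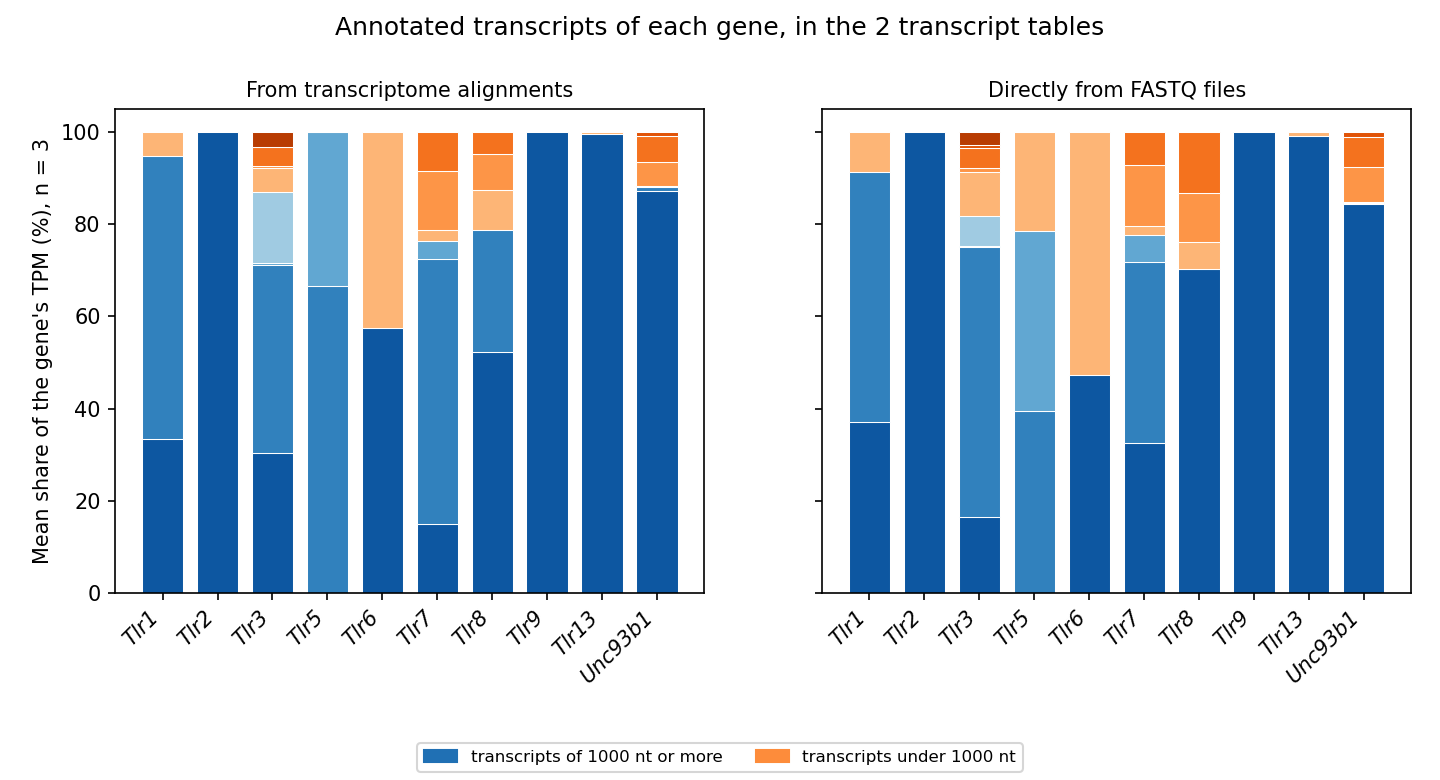
Mean share of each member's TPM (%, n = 3 libraries) taken by its annotated transcripts, in the table made from transcriptome alignments (left) and in the table made directly from FASTQ files (right). Blue segments are transcripts of 1000 nt or more and orange segments shorter ones; the short transcript of Tlr6 takes 42.4% on the left and 52.7% on the right.

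A second transcript table, made by the authors directly from the sequence files, gave lower TPM for all 10 members. Over 9247 genes the median log2 ratio of the second to the first was -0.84, with quartiles of -0.89 and -0.75, and the detected members lay between -0.92 (Tlr7) and -0.63 (Tlr6). The order of the members was that of the first table except that Tlr8 (33.6 ± 5.28 TPM) came before Tlr13 (32.1 ± 4.73 TPM), a pair that was not apart there. Of the 7 detected members with several annotated transcripts, 6 had the leading transcript of the first table. The exception was Tlr6, where Tlr6-202 led with 52.7 ± 2.43%. In the second table Tlr8-201 was listed at 0 in all 3 libraries and Tlr8-202 took 70.2 ± 2.70%, Tlr3-205 took 58.7 ± 2.69% beside 16.5 ± 2.58% for Tlr3-201, and the 2 main Tlr7 transcripts were at 39.4 ± 1.71% and 32.4 ± 1.28%.

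Variation between the libraries was tested in edgeR by how far each gene departed, in residual deviance, from the trended dispersion, with Benjamini-Hochberg adjustment over all 12256 genes tested. None of the 9 members tested was called at an adjusted p under 0.05, a call made for 1.96% of all genes, and Tlr5 had too few counts to be tested. With the dispersion trend of DESeq2 in the same deviance test none was called either, but Tlr9 had an adjusted p of 0.0648 and Tlr3 of 0.0965. Without replicate 1, the edgeR adjusted p of Tlr9 was 0.0566. At an unadjusted p under 0.05 there were 2 members, Tlr3 and Tlr9, beside 6.88% of all genes. On TMM-scaled CPM, counts scaled to library size without length correction, Tlr3 was at 164, 88.3 and 100.1 and Tlr9 at 265, 140.0 and 255.

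Tlr3 was thus high in replicate 1 and Tlr9 low in replicate 2. The SD of log2 CPM was 0.47 for Tlr3 (edgeR unadjusted p = 0.00264, adjusted p = 0.105) and 0.51 for Tlr9 (edgeR unadjusted p = 0.00513, adjusted p = 0.167), against a median of 0.14 over all genes tested. Each rested on 1 library: without replicate 1 the edgeR unadjusted p of Tlr3 was 0.425, and without replicate 2 that of Tlr9 was 0.880. Unc93b1 had an SD of 0.12, and the other 6 members tested had SDs of 0.16 to 0.25.

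**Figure D4:**
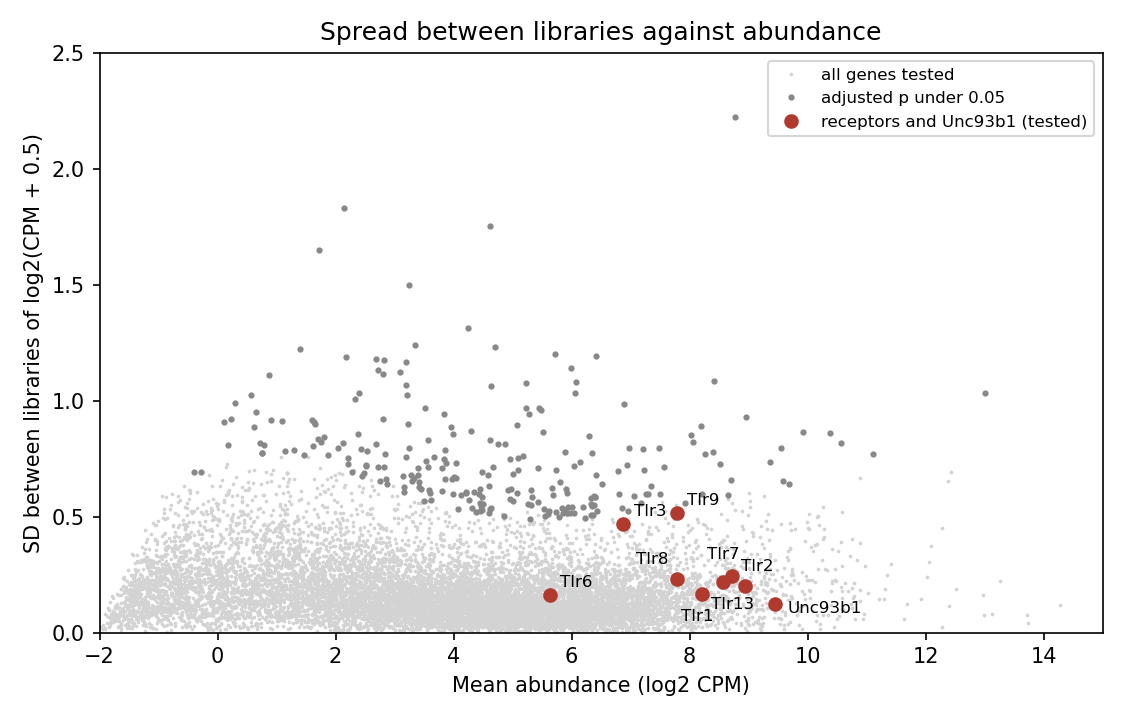
SD between the 3 libraries of log2(CPM + 0.5) against mean log2 CPM for all 12256 genes tested, with 3 genes outside the axes. Dark grey points are genes with an adjusted p under 0.05 in edgeR and red points the 9 members tested; Tlr3 and Tlr9 lie highest among the members, at 0.47 and 0.51, and none of the members is called.

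Replicate 1 held the highest TPM for 7 of the 10 members, as it did for 47.7% of all detected genes. On TMM-scaled CPM this was 7 of the 9 tested, against 35.1% of genes, and with TPM rescaled over nuclear protein-coding genes it was 4 of 10, against 20.3%. Tlr3, Tlr7, Tlr8 and Tlr13 were highest in replicate 1 on all 3 scales. Tlr1, Tlr6 and Tlr9 were so on TPM and CPM only. Ratios within a library do not depend on this scaling.

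In the rest of the receptor family, Tlr4, the receptor for Lipid A itself, was at 26.25, 17.05 and 18.90 TPM, a mean of 20.7 ± 4.87 TPM. Tlr2 exceeded it in each library, by 1.98, 2.88 and 2.25 on the log2 scale, a mean of 2.37 ± 0.46, or 5.18-fold. The level of Tlr4 lay close to that of Tlr3. Tlr11 (0.220 ± 0.0557 TPM) and Tlr12 (0.153 ± 0.0907 TPM), which sense profilin of parasites in endosomes, were not detected. Tlr13 was thus the only receptor of the mouse-specific set above 1 TPM.

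Of the 16 listed genes that carry and trim the endosomal receptors, 14 were detected, beside 16.7% of all annotated and 40.1% of protein-coding genes. The median mean level of the 16 was 83.4 TPM, against 8.31 TPM over all detected genes and 0 over all annotated genes. The gene lists here and below were chosen with earlier results of these data known. Their levels therefore describe the listed genes and are not an independent result. Unc93b1 is itself on the list of 16. The highest were the proteases Ctsb (2109 ± 250.1 TPM), Ctss (1351 ± 193 TPM) and Lgmn (630.1 ± 74.6 TPM), which cut proteins in endosomes and lysosomes. The lowest were 5430427O19Rik (8.77 ± 2.65 TPM), Ctsk (1.66, 0.63 and 0.48 TPM), the cathepsin of osteoclasts, and Lamp5, with no counts, which allows up to 0.0509 TPM. Of 7 nucleases that shape the ligands of these receptors, 6 were detected, with a median of 45.5 TPM. Pld3 (151 ± 8.51 TPM) and Pld4 (146 ± 26.8 TPM), exonucleases that degrade single-stranded nucleic acid in lysosomes, were highest, followed by Rnaset2b (117 ± 12.7 TPM), whose reads may be divided with the near-identical copy Rnaset2a. Dnase2a (29.0 ± 3.04 TPM), Rnase4 (18.7 ± 3.34 TPM) and Dnase1l3 (0.750 ± 0.423 TPM) were lowest.

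The counts for the next lists likewise stand beside 16.7% of all annotated and 40.1% of protein-coding genes detected. The median over all detected genes was 8.31 TPM. Of the 8 adaptors and factors that receive the signal, 7 were detected, with a median of 36.7 TPM. Irf7, the interferon regulatory factor that acts below the nucleic acid receptors, was at 909.56, 599.53 and 625.70 TPM, the highest of the list and highest in replicate 1. Pik3ap1 (269 ± 29.1 TPM) and Irf5 (68.9 ± 10.4 TPM) followed. Tirap, the bridge from TLR2 and TLR4 to MYD88, was at 2.27 ± 0.255 TPM, Ticam1, the TLR3 adaptor, was at 14.6 ± 2.45 TPM, and Sarm1 was at 0.00667 ± 0.00577 TPM. Of 9 surface coreceptors and relatives 7 passed the threshold, and the list median was 39.1 TPM. Cd14, which hands ligands to TLR2 and TLR4, was at 210.1, 350.3 and 147 TPM. It was highest in replicate 2, as were 38.0% of all detected genes. Cd180 (215 ± 57.0 TPM) and its partner Ly86 (93.7 ± 9.96 TPM) came next. Cnpy4 (3.58 ± 0.386 TPM), Lbp (0.650 ± 0.104 TPM) and Tril (no counts, which allows up to 0.00936 TPM) were lowest.

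**Figure D5:**
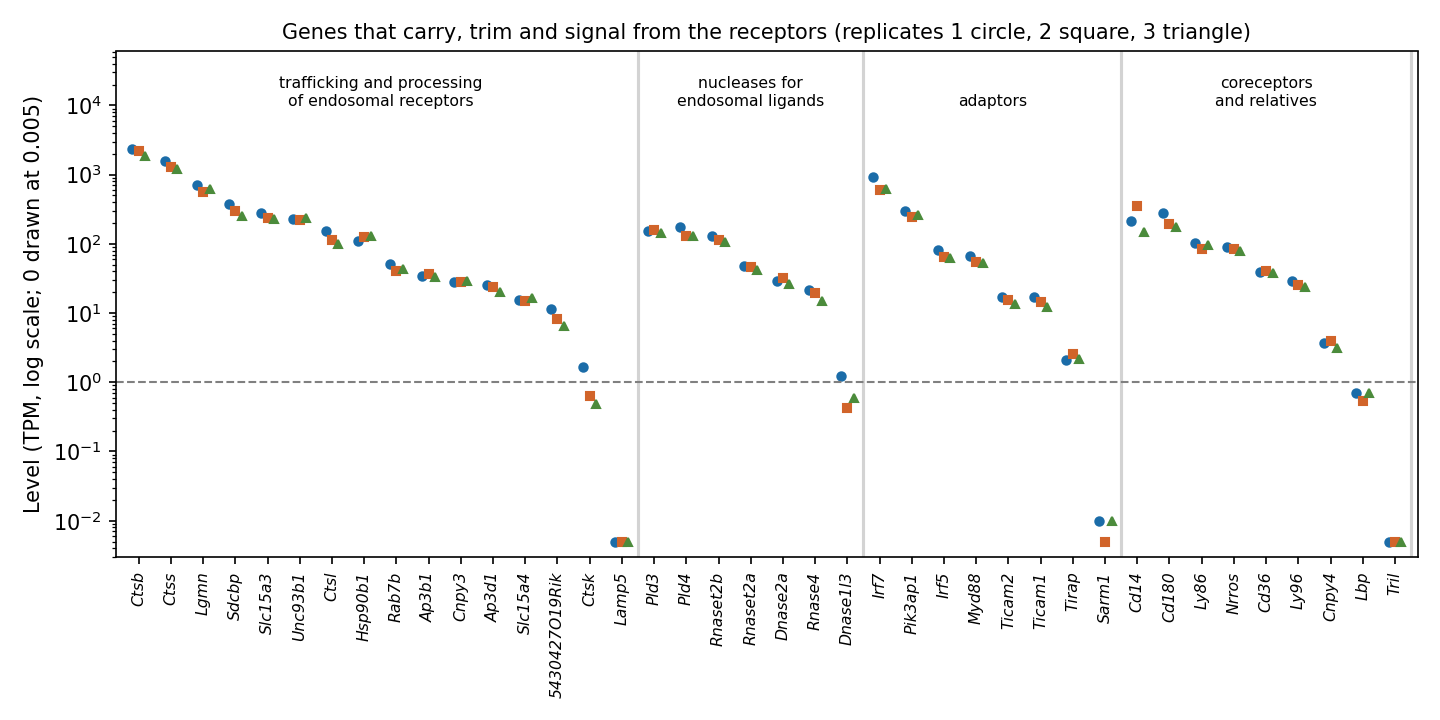
Level in TPM (log axis) in each library of the genes that carry, trim, feed, signal from and assist the receptors, in 4 lists ordered by mean; a value of 0 is drawn at 0.005 and the dashed line is the 1 TPM threshold. In the 4 lists, 14 of 16, 6 of 7, 7 of 8 and 7 of 9 genes lie above the threshold in every library, beside 40.1% of protein-coding genes.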

How the data were processed

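Total RNA depleted of ribosomal RNA was sequenced from the cytosolic fraction of 3 macrophage cultures, from 1 µg of RNA and inserts of 250 to 400 nt per the labels. Per the notes deposited with the samples, reads aligned to the transcriptome gave the gene table and a first transcript table, and FASTQ files a second, on mm10 with GENCODE M21. The aligner and counter were not given in the sources used here, nor was the use of strand. The expected counts and estimated counts are deposited without normalization. TPM, as deposited, correct for effective length, per the file headers. The percent values, per the file headers, are each transcript's share of its gene's TPM, and the posterior SD is deposited in counts. Spike-in and tRNA features (0.0959 to 0.227% of counts) were left out of library sizes.

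Members and gene lists were chosen with earlier results of these data known. All 10 members were named, with Tlr4, Tlr11 and Tlr12 and the 3 highest and 3 lowest genes of each pathway list. Motifs and shared words were counted by exact match. Rounded expected counts were tested in edgeR 4.0.16 (R 4.3.3) with TMM scaling, filterByExpr and estimateDisp, tested first on simulated data; DESeq2 1.42.0 size factors and dispersion trend were alternatives, beside other tables, thresholds (0.5 and 5 TPM), a pseudocount of 1 TPM, rescaling over protein-coding genes and leaving out each replicate. Depth is 40637857 to 70407572 counts per library, which leaves counting errors of 0.517 to 1.95% on the detected members.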

Additional observations from a re-analysis of the deposited data

How the results depend on the processing

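Of 71 alternative mean values for the 10 log2 ratios, 58 moved by less than the SD between libraries and 13 moved by more. The 58 include all means that leave out a replicate. Those reuse the same libraries and cannot move by a full SD, so 58 of 71 is not a measure of stability. The 13 came from expected counts, the second transcript table or transcripts of 1000 nt or more. None of the 71 means changed sign, which does not cover the single libraries. With expected counts, which carry no length correction, Unc93b1 to the endosomal sum was -0.95, Tlr2 to Tlr6 3.31, Tlr1 to Tlr6 2.57, Tlr7 to Tlr8 0.92, Tlr13 to Tlr7 -0.14 and Tlr3 to Tlr7 -1.88. In the second transcript table Tlr2 to Tlr6 was 2.61, Tlr1 to Tlr6 2.09 and Tlr7 to Tlr8 0.54. With transcripts of 1000 nt or more only, an alternative chosen after seeing the data, Tlr2 to Tlr6 was 3.68, Tlr1 to Tlr6 3.02, Tlr13 to Tlr7 -0.24 and Tlr3 to Tlr7 -1.93. Adding Tlr4, Tlr11 and Tlr12 to the sums was likewise chosen after seeing the data. The causes were not tested beyond the construction of each alternative. The number of detected members was 9 at thresholds of 0.5, 1 and 5 TPM and in the second table. Neighbours called apart numbered 7 to 9 of 9 under the alternatives, and none of the members was called variable between libraries under any alternative run. Over all genes, 240 were called variable in edgeR, and 119, 102 and 82 without replicates 1, 2 and 3. Mean TPM moved by more than the SD in 23 of 60 alternative values, chiefly in the second table and with rescaling over protein-coding genes, which both shift all genes. The 60 likewise include the means that leave out a replicate, which could not move by a full SD. No paired analysis was possible because the libraries form 1 group. Depth limits Tlr5, which had 8 to 29 counts per library.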
